A study of Mus musculus with 5 samples.

Results

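Protocadherins and cadherins are calcium-dependent adhesion proteins of the cell surface, and their genes were examined here for occupancy by the histone variant macroH2A1.2. The genes were chosen by name, as the autosomal protein-coding genes of the GENCODE M21 mouse annotation whose symbol starts with Pcdh or is Cdh followed by digits. The rule found 90 of 20807 autosomal protein-coding genes, of which 57 lie in the Pcdha, Pcdhb and Pcdhg clusters and 33 stand singly, 23 of them Cdh and 10 Pcdh genes. The clusters held 14, 22 and 21 genes in that order, and the annotation lists Pcdha11 under 2 identifiers. A gene's window was its body with 10 kb on either side.

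The cells were 3T3-L1, a mouse fibroblast line that can be turned into adipocytes, made to express macroH2A1.2 fused to GFP by lentiviral transduction. All groups carried the transgene, so the reads report on the tagged protein and not on endogenous macroH2A1.2, and the study's methods speak of stable clones without giving their number. The labels give 3T3-L1 as the material of the ChIP, where the study's methods speak of adipose tissue. Chromatin was cut with micrococcal nuclease, pulled down with an antibody to GFP and sequenced in 2 replicates of pre-adipocytes, taken before differentiation, and 2 of mature adipocytes, differentiated for 60 h with insulin at 10 µg/ml, dexamethasone at 0.25 µM and IBMX at 500 µM and then kept in medium with insulin as the remaining inducer. A single library made without antibody served as control for all 4 samples. Conditions were taken from the sample titles. For both samples titled as mature adipocytes, another label field gives the pre-differentiation state instead, so every comparison of conditions rests on the titles.

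Each deposited table lists the regions called as enriched in that sample over the control, up to a false discovery rate of 0.001, with the ChIP and control reads in each. For pre-adipocytes the tables held 36468 regions (replicate 1) and 38546 (replicate 2), and for mature adipocytes 59375 and 61196. Of these, 138, 151, 194 and 229 overlapped the window of a protocadherin or cadherin gene. Pre-adipocyte replicate 2 was the shallowest library, with a size of 0.549 relative to the control against 1.20 to 1.23 in the other 3 samples. Its regions held 2833105 ChIP reads and covered 5.61% of the autosomes, against 9876187 to 11592708 reads and 11.3 to 11.9% in the others. Reads outside called regions were not analysed here, so a gene without a region is a gene with none in the deposited tables, not a gene shown to lack the protein. The study's methods name a looser false discovery rate than the one at which the tables stop, so weaker regions that passed it would be missing from them.

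MacroH2A variants carry a large non-histone domain and are best known from the inactive X chromosome and from broad domains of silent chromatin, while some of their sites lie at active genes. Classical cadherins bind the same cadherin on a neighbouring cell through repeated extracellular domains and hold the actin cytoskeleton through catenins. The clustered protocadherins are known from neurons, where variable exons with a promoter each are chosen and joined to constant exons in the Pcdha and Pcdhg clusters, and give a cell its surface identity. The single cadherins and protocadherins include some of the longest genes of the genome, with very long introns.

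The clusters held no called region, whereas most of the single genes held some. No region overlapped any of the 57 clustered genes in any of the 4 samples. Of the 33 single genes, 21 had a region in at least 1 sample and 15 had regions in all 4. A region anywhere in the window counted, so the regions of different samples need not lie at the same place. Cdh5, Cdh13, Cdh26 and Pcdh17 were among the 15 but had no region, merged across samples, that was called in all 4. Among all 20807 autosomal protein-coding genes, 53.7% had a region in at least 1 sample and 4396 had regions in all 4. The share of the windows covered by regions was 0% in each of the 3 clusters, over 757 kb of windows. In the 17 single genes of at least 100 kb, with 8883 kb of windows, it was 8.51% and 5.05% in pre-adipocytes and 6.57% and 7.46% in mature adipocytes. The long single genes lay above the clusters in 4 of 4 samples, by 6.90 percentage points on average. With the clusters at 0 the sign of each difference was fixed once the long genes held any region, so no test of it is given. The 4 libraries share a control, and the clusters are neighbours on the chromosome.

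**Figure D1:**
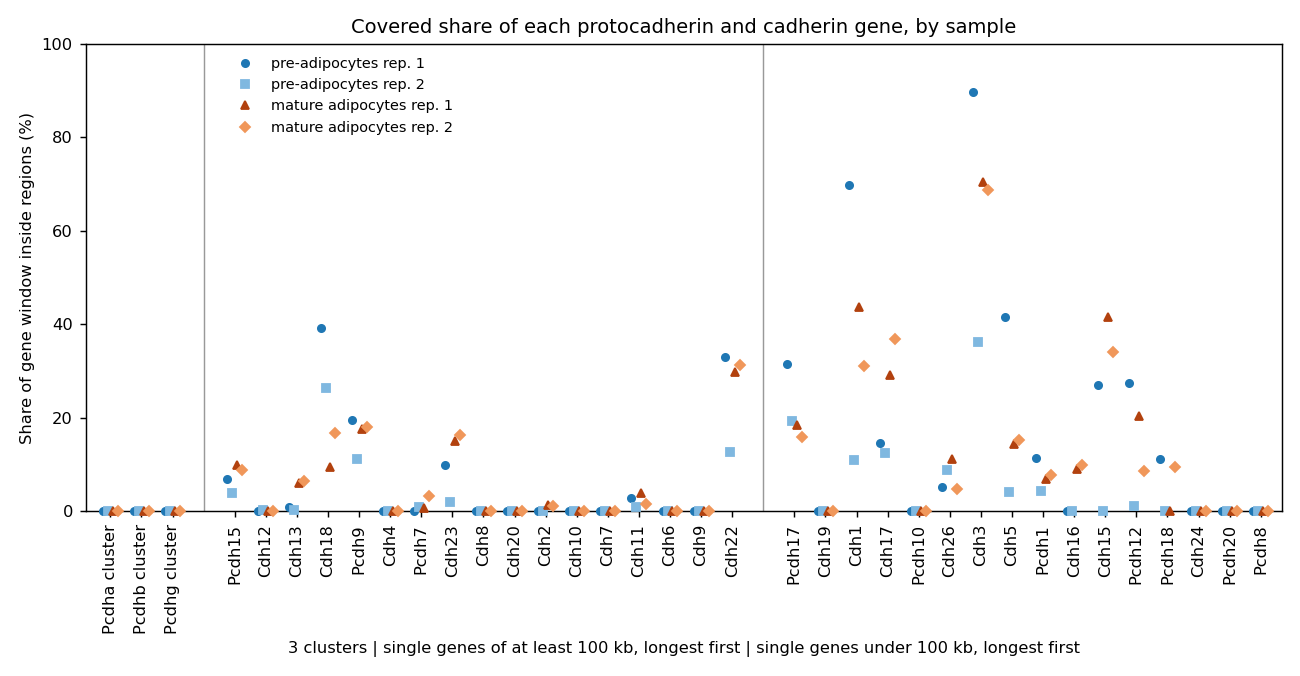
Share of each gene window (body with 10 kb on either side) that lay inside called regions, in percent, for the 3 protocadherin clusters and the 33 single genes; each point is 1 sample, circles and squares pre-adipocytes, triangles and diamonds mature adipocytes. The clusters and 12 single genes lie at 0 in all 4 samples, and Cdh3 reaches 89.8% in pre-adipocyte replicate 1.

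The clusters occupy chr18:36930184-37841873 (mm10), a stretch of 912 kb. On the side of Pcdha the nearest region ended 227 kb and 715 kb away in the pre-adipocyte samples and 213 kb and 225 kb away in the mature ones. On the side of Pcdhg the nearest region began 205 kb, 259 kb, 201 kb and 142 kb away in the same order. The clusters thus sat in a stretch free of regions of 1343 kb, 1885 kb, 1326 kb and 1279 kb. Slc25a2 and Taf7, genes of other families that lie between Pcdhb and Pcdhg, had no region either. Stretches as long were common, with 280, 173, 266 and 268 of them on the autosomes, which together held 32.2%, 22.2%, 30.1% and 29.7% of the autosomal sequence. Chromosome 18 as a whole was covered to 7.07%, 3.31%, 8.40% and 8.29%, below the autosomes in each sample.

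**Figure D2:**
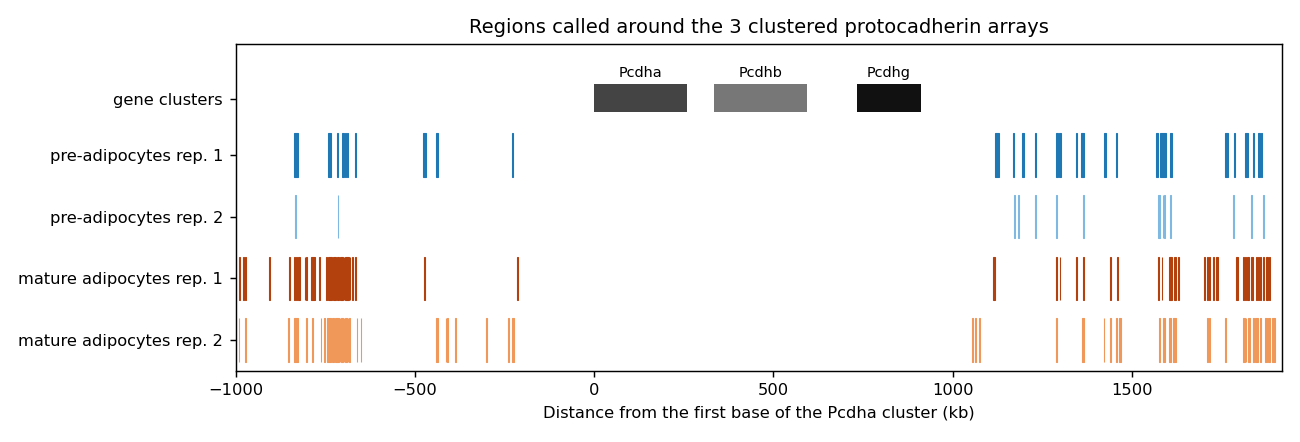
Called regions of the 4 samples within 1 Mb of the protocadherin clusters, against the distance from the first base of the Pcdha cluster in kb; grey and black bars mark the clusters and coloured bars the regions of 1 sample per lane. No lane has a region between the Pcdha and Pcdhg ends, and the nearest lies 142 kb beyond Pcdhg in mature adipocyte replicate 2.

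The clustered genes are related to each other in sequence, and only uniquely mapping reads were kept. Of all 50-base words in the exons of the Pcdha cluster, 11.8% also occurred, letter for letter, at another place in the annotated exons of the mouse. The share was 4.31% in Pcdhb and 3.17% in Pcdhg, against 0.229% in the long single genes and 0.00812% in the short ones. Most exonic words of the clusters thus had no exact copy in other exons. Copies outside exons and copies with mismatches were not searched, although the alignment allowed up to 2 mismatches. The introns and spacers of the clusters also had no region. Repeated words cannot receive uniquely mapping reads, and their part in the absence of regions was not tested.

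The 15 genes of 90 with regions in both replicates of pre-adipocytes are read against all autosomal protein-coding genes, of which 24.2% had them. The 19 in both replicates of mature adipocytes stand against 34.4% of all genes, and the 21 in any sample against 53.7%. All of these genes stood singly, so they are also 15, 19 and 21 of 33 single genes, which are larger shares than those of all genes. The 57 clustered genes lie in a single stretch free of regions, which lowers the shares taken over 90. With regions of a fold of at least 2 alone, the counts fell to 7 and 10. The share over all genes was not taken at this fold, so the fall cannot be read as particular to these genes. Long genes hold a region more often than short ones, so the 17 long single genes are read against the 2372 genes of at least 100 kb. In both pre-adipocyte replicates 7 of 17 had a region, against 43.8% of such genes, and in both mature adipocyte replicates 9 of 17, against 55.4%. In any of the 4 samples 10 of 17 were occupied, against 73.9%. Over all genes of at least 100 kb the covered share was 8.28% and 4.00% in the pre-adipocyte samples, then 8.76% and 8.54% in the mature ones. The long single genes stood slightly above it in both pre-adipocyte samples and below it in both mature ones. On average the place above it rested on Cdh18. Without that gene the pre-adipocyte mean of the long single genes was 3.68%, against 6.14% for all genes of this length, Cdh18 included. Their mature mean was then 6.29%, against 8.65%. The 16 single genes under 100 kb were covered to 23.9%, 8.15%, 18.6% and 16.9%. Over all genes under 100 kb the covered share was 8.57%, 3.82%, 8.78% and 8.41%.

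Between conditions the long single genes as a group did not move beyond their spread. Pre-adipocytes had a mean covered share of 6.78% ± 2.44 (SD, n = 2) and mature adipocytes one of 7.01% ± 0.626 (SD, n = 2), which differ by 0.236 percentage points (two-sided exact permutation test, p = 1). This test cannot give a p under 0.33 with 2 samples against 2, and the same floor holds for every single gene. Without pre-adipocyte replicate 2 the difference was -1.49 points, and without Cdh18 it was 2.61 points. The ChIP reads in their regions, over control reads and scaled by library size, were 1.53-fold and 1.91-fold in pre-adipocytes and 1.82-fold in both mature adipocyte replicates. On the log2 scale the difference was 0.09 (exact permutation test, p = 1), and the pre-adipocyte values lay on either side of the mature ones. Over all genes of at least 100 kb these folds were 1.57 and 1.93, then 1.72 and 1.74, so the shallow library stood highest there too.

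Single genes stood in both orders beneath this group value. Of the 21 with a region in any sample, 7 had a higher covered share in both mature adipocyte samples than in both pre-adipocyte samples, a pattern seen in 27.1% of the 11172 genes with a region. These were Cdh13, Cdh15, Cdh16, Cdh17, Cdh2, Cdh23 and Pcdh15. In Cdh16 and Cdh2 the order rests on 1 or 2 regions in each mature sample, which lay at different places in the 2 samples. The opposite order was found in 2 of the 21, Cdh18 and Pcdh17, against 6.53% of those genes. Among genes of at least 100 kb with a region the 2 orders were found in 35.3% and 7.24%, and among the 10 such single genes in 4 and 1. The other 12 overlapped between conditions.

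Cdh18 and Cdh13, both among the 8 longest single genes, stood in opposite orders. Cdh18 encodes a type II cadherin known from the nervous system, and its body of 925 kb lies on the plus strand at chr15:22549022-23474418. Regions covered 39.2% and 26.3% of its window in pre-adipocytes and 9.35% and 16.8% in mature adipocytes. Both pre-adipocyte samples stood above both mature ones, including the shallow library, and the means of 32.8% ± 9.10 and 13.1% ± 5.27 (SD, n = 2 each) differed by -19.7 percentage points (exact permutation test, p = 0.33). The window held 39 and 59 regions in pre-adipocytes and 20 and 34 in mature adipocytes. The enrichment in them was low, 1.36-fold, 1.70-fold, 1.39-fold and 1.43-fold, and did not separate the conditions. Control reads were dense in these regions, 23.6 to 24.2 per kb in the 4 samples against 18.6 to 19.4 over all regions, and their part in the calls was not tested.

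The 3′ end of Cdh18 was its most covered part in all 4 samples. In the last of 5 equal parts of the body, coverage was 79.5% and 52.6% in pre-adipocytes and 31.2% and 31.7% in mature adipocytes. In the fourth part it was 23.2% and 20.4%, then 2.27% and 1.73%. In the part nearest the start it was 18.6% and 17.7%, then 4.75% and 7.46%. The samples of the 2 conditions did not overlap in any of these 3 parts, but did in part 2, with 34.5% and 17.5%, then 0.540% and 21.7%. The region with most ChIP reads lay in the last part in all 4 samples, 891 to 903 kb from the start and over an exon.

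Cdh13 encodes T-cadherin, an atypical cadherin anchored to the membrane by a lipid, which binds adiponectin, a hormone secreted by adipocytes. Its body of 1041 kb lies on the plus strand at chr8:118283733-119324921. Regions covered 0.892% and 0.339% of its window in pre-adipocytes and 6.11% and 6.38% in mature adipocytes. The 2 mature values were close to each other and both well above the pre-adipocyte ones, with means of 6.24% ± 0.187 and 0.616% ± 0.391 (SD, n = 2 each) and a difference of 5.63 percentage points (exact permutation test, p = 0.33). The number of regions was 1 and 2 in pre-adipocytes and 21 in each mature adipocyte sample. In the middle part of 5 of the body, coverage was 0% and 0.864% in pre-adipocytes and 16.3% and 15.6% in mature adipocytes. The region with most ChIP reads in both mature samples lay just upstream of the gene, with its midpoint at -11.3 and -12.9 kb from the start, and held 515 and 413 ChIP reads at 2.11-fold and 2.04-fold, while the highest folds in the window were 4.25 and 3.69. In pre-adipocyte replicate 1 the gene's only region overlapped this place, with its midpoint at -5.33 kb, and held 351 ChIP reads at 1.45-fold.

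**Figure D3:**
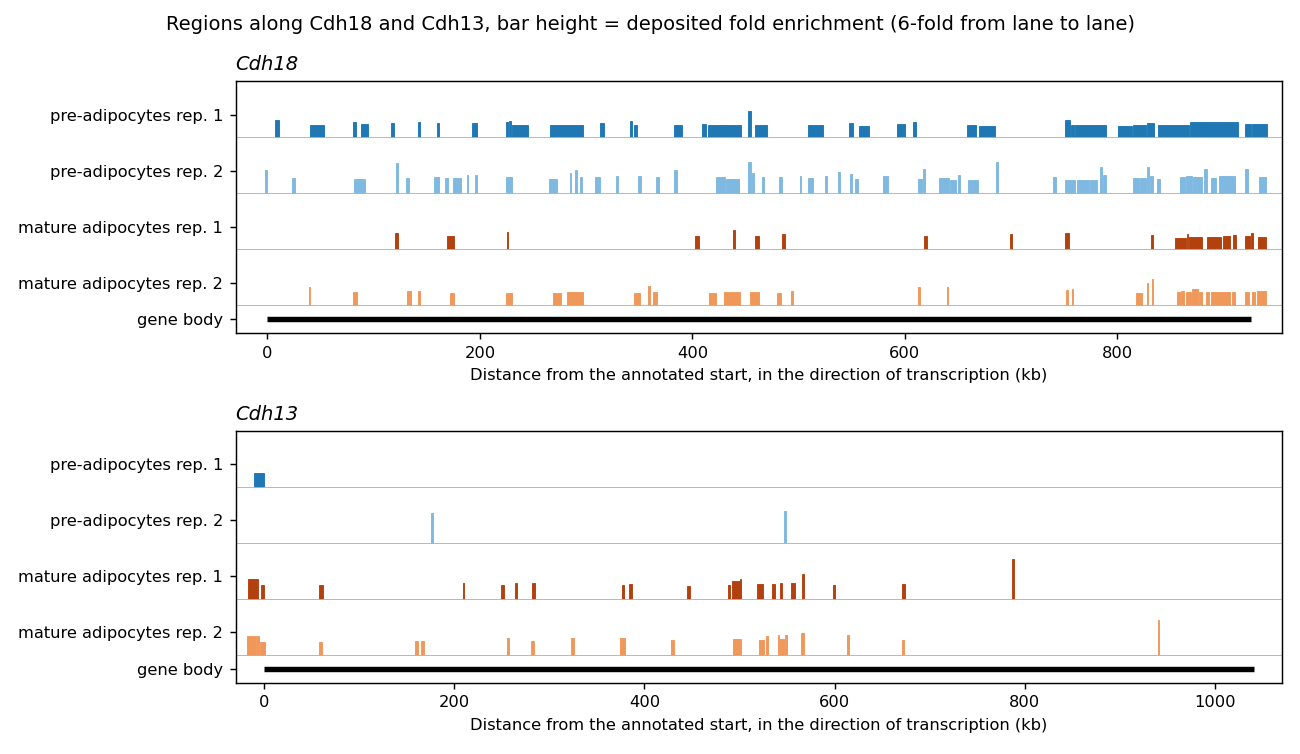
Called regions along Cdh18 and Cdh13 in the 4 samples, 1 lane each, against the distance from the annotated start in kb; bar height is the deposited fold enrichment, with 6-fold from lane to lane, and the black line is the gene body. Cdh18 has 39 and 59 regions in the pre-adipocyte lanes and 20 and 34 in the mature lanes, and Cdh13 has 1 and 2 against 21 and 21.

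Cdh23 and Pcdh15 encode the cadherin-23 and protocadherin-15 proteins that together form the tip link of hair cells in the inner ear. Both had a higher covered share in both mature adipocyte samples. Cdh23, at chr10:60302748-60696490 on the minus strand, was covered to 9.96% and 2.03% in pre-adipocytes and 15.1% and 16.3% in mature adipocytes. The difference was 9.72 percentage points (exact permutation test, p = 0.33), and the pre-adipocyte values differed from each other by nearly as much. In the 3 parts of the body nearest the start no region was called in either pre-adipocyte sample, whereas coverage there was 3.81% to 12.2% in mature replicate 1 and 4.06% to 23.1% in mature replicate 2. In the last part pre-adipocyte replicate 1, with 25.5%, was level with the mature samples, which had 26.0% and 27.5%. The regions of Cdh23 had folds of 2.16, 2.55, 2.39 and 2.34, above those of the long single genes together in each sample.

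Pcdh15, at chr10:73099342-74649737 on the plus strand, is the longest of the single genes, with a body of 1550 kb. It was covered to 6.79% and 3.82% in pre-adipocytes and 9.83% and 8.91% in mature adipocytes, a difference of 4.06 percentage points (exact permutation test, p = 0.33). Nearly all of this coverage lay at the 3′ end. The last of 5 parts was covered to 33.0% and 16.6% in pre-adipocytes and 43.8% and 41.8% in mature adipocytes, and parts 2 and 3 from the start held no region in any sample. Of its exons, 14, 5, 16 and 12 of 47 after merging were in a region, and 35.9%, 15.2%, 42.8% and 43.8% of its exonic sequence was covered.

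Pcdh9, a delta-1 protocadherin known from the brain, showed no order by condition. Its body of 877 kb lies at chr14:93013410-93890679 on the minus strand. Coverage was 19.5% and 11.2% in pre-adipocytes and 17.6% and 18.1% in mature adipocytes, so that the mature values lay between the pre-adipocyte ones. The 31, 36, 51 and 52 regions were spread along the gene, with the lowest coverage in the 2 parts of 5 nearest the start, at 1.94% to 9.35%, and the highest in the last part in each sample, at 22.5% to 36.7%. Folds were 1.85, 2.35, 2.05 and 2.14. Exons made up 0.773% of the body, and of the 6 merged exons none was in a region except 1 in mature adipocyte replicate 2.

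**Figure D4:**
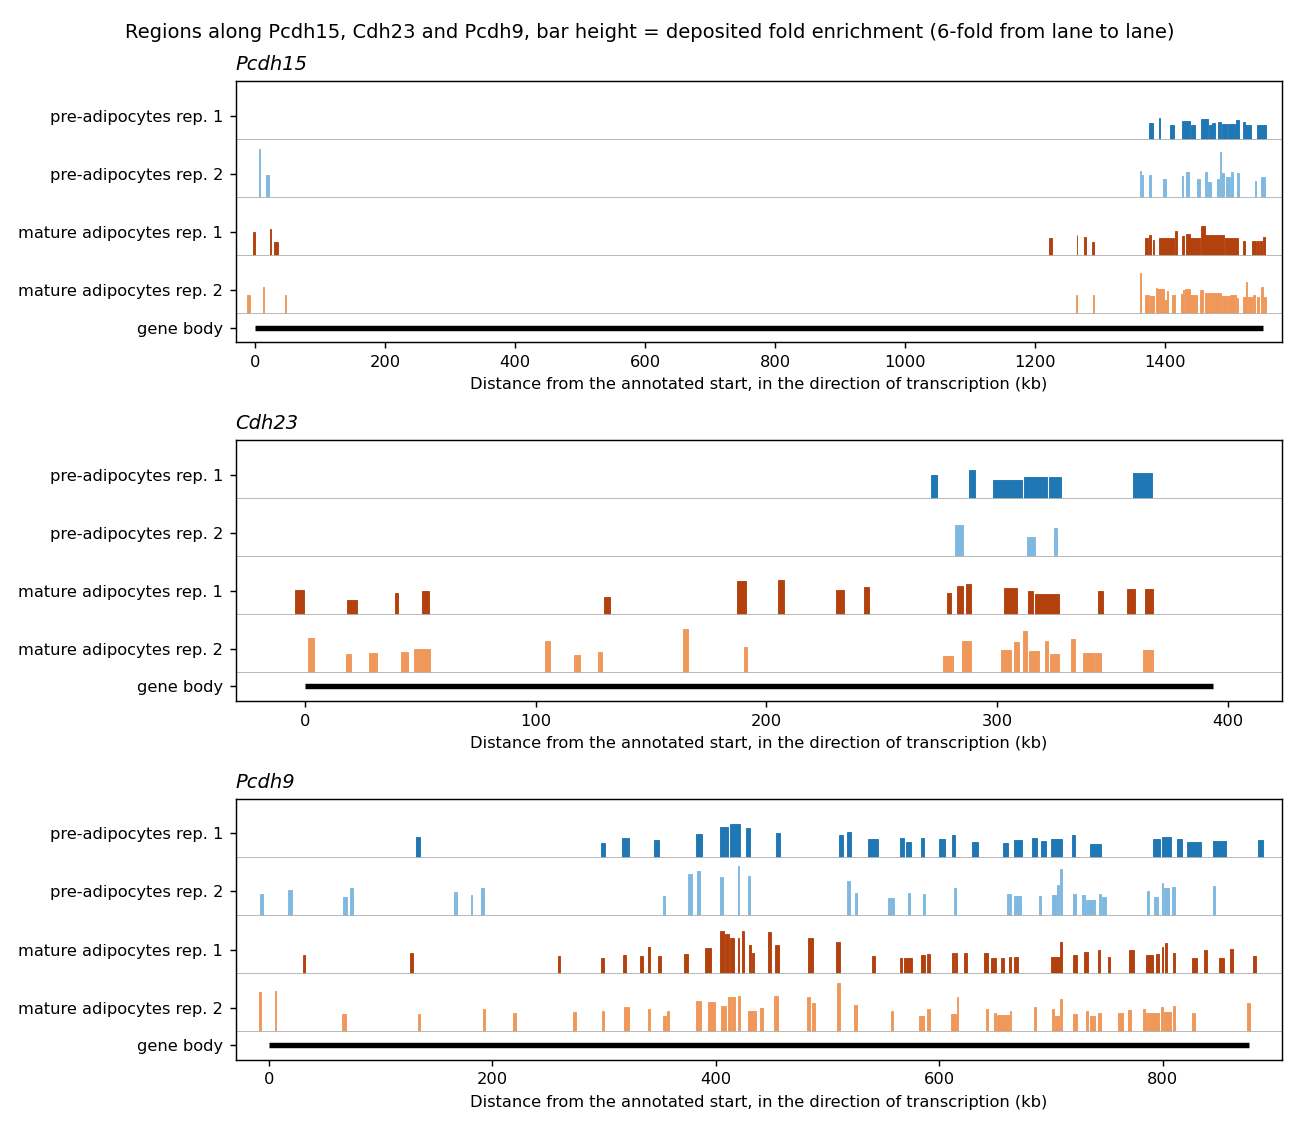
Called regions along Pcdh15, Cdh23 and Pcdh9 in the 4 samples, drawn as distance from the annotated start in kb against the deposited fold enrichment as bar height, with 6-fold from lane to lane. Pcdh15 regions crowd at the 3′ end, where the last of 5 parts is covered to between 16.6% and 43.8%, Cdh23 has regions in its 5′ part in the mature lanes alone, and Pcdh9 has regions along its body.

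The remaining genes among the 8 longest were almost bare. Cdh12, a type II cadherin of the brain with a body of 1140 kb, had no region in replicate 1 of either condition and 1 region in replicate 2 of both, which covered 0.259% of the window in pre-adipocytes and 0.0862% in mature adipocytes. Both of these lay over the same exon-containing stretch near the 3′ end, with midpoints 1071 kb from the start. Pcdh7, a delta-1 protocadherin with a body of 415 kb, was covered to 0%, 0.965%, 0.735% and 3.35%. Cdh4, which encodes R-cadherin, a classical type I cadherin, had no region in any sample in a body of 457 kb. The nearest regions to Cdh4 lay 82.6 to 210 kb from its body.

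Among the other single genes of at least 100 kb, 6 had no region in any sample, Cdh20, Cdh7, Cdh8, Cdh6, Cdh9 and Cdh10, all type II cadherins. Around Cdh8 the nearest region lay 289 to 2989 kb away, and around Cdh9 385 to 3933 kb. Cdh22, the type II pituitary and brain cadherin, had the highest mean covered share of the long genes, with 32.9% and 12.7% in pre-adipocytes and 29.9% and 31.4% in mature adipocytes. Its folds of 2.30, 3.03, 2.50 and 2.59 were above those of the long single genes together in every sample. Cdh2, which encodes N-cadherin, the classical cadherin of neurons and fibroblasts, had no region in pre-adipocytes and 1 and 2 regions in mature adipocytes, covering 1.33% and 1.18% of the window. Cdh11, which encodes OB-cadherin, a cadherin of mesenchymal cells, had no region inside its body in any sample. Regions upstream of its start reached into the window in all 4 samples and covered 2.91%, 0.831%, 3.83% and 1.52% of it.

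Chromosome 15 holds 5 of the type II cadherins, which were covered unevenly. The chromosome was covered to 26.1%, 14.4%, 25.2% and 24.6%, above the autosomes in each sample. Cdh6, Cdh9 and Cdh10 had no region, Cdh12 had at most 1, and Cdh18, the next cadherin gene after Cdh12, had 20 to 59. By type, 5 of 13 type II genes had a region in any sample, 4 of 5 type I genes (all but Cdh4) and 3 of 3 delta-1 protocadherins, beside 53.7% of all genes and 73.9% of those of at least 100 kb. Of the 4 delta-2 protocadherins Pcdh17 and Pcdh18 had regions, whereas Pcdh8 and Pcdh10 had none.

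The short single genes included the most covered of all. Cdh3, which encodes P-cadherin, and Cdh1, which encodes E-cadherin, the cadherin of epithelia, are neighbours at chr8:106510891-106557297 and chr8:106603351-106670246. Chromosome 8 was covered to 15.7% and 7.83% in pre-adipocytes and 18.6% and 18.0% in mature adipocytes, above the autosomes in each sample. Cdh3 was covered to 89.8% and 36.3% in pre-adipocytes and 70.5% and 68.7% in mature adipocytes. Cdh1 was covered to 69.8% and 11.0%, then 43.8% and 31.1%. In both genes the mature values lay between the pre-adipocyte ones, of which the lower came from the shallow library. Folds in Cdh3 were 1.33, 1.75, 1.50 and 1.50 and control reads 22.0 to 23.3 per kb, so wide coverage here came with low enrichment. Cdh3 had 15, 7, 12 and 8 of its 16 merged exons in a region, and Cdh1 14, 2, 10 and 7 of 16.

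Cdh5, which encodes the VE-cadherin of endothelium, was covered to 41.7% and 4.13% in pre-adipocytes and 14.4% and 15.2% in mature adipocytes. Cdh15, the muscle cadherin, was covered to 27.0% and 0%, then 41.6% and 34.0%. The 7-repeat cadherins both had a higher covered share in mature adipocytes. For Cdh16 this rests on 1 region in each mature sample, at different places, with folds of 1.50 and 1.41. Cdh17, the liver-intestine cadherin, was covered to 14.7% and 12.5% in pre-adipocytes and 29.1% and 36.9% in mature adipocytes (difference 19.4 percentage points, exact permutation test, p = 0.33), and Cdh16, the kidney cadherin, to 0% and 0%, then 8.94% and 9.89%. Pcdh17 showed the reverse order, with 31.5% and 19.4%, then 18.5% and 15.9%, and its lowest pre-adipocyte and highest mature value were less than 1 percentage point apart. Pcdh12, a protocadherin of endothelium, was covered to 27.3%, 1.08%, 20.4% and 8.58%, and Pcdh1, a delta-1 protocadherin, to 11.4%, 4.33%, 6.94% and 7.80%, all of it outside the body. Cdh26 ranged from 4.69% to 11.2% and Pcdh18 from 0% to 11.2% with no order by condition. Cdh19, Cdh24, Pcdh8, Pcdh10 and Pcdh20 had no region. Around Pcdh10 the nearest lay 3829 to 3926 kb from the body.

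Few starts of the single genes lay in a region, as was the case for all genes. A start was inside a region in 3 of the 33 single genes in pre-adipocyte replicate 1 (Cdh3, Cdh1 and Cdh15), in 1 in replicate 2 (Cdh3), in 2 in mature adipocyte replicate 1 (Cdh3 and Cdh15) and in 4 in replicate 2 (Cdh26, Cdh17, Cdh1 and Cdh13). These are 9.09%, 3.03%, 6.06% and 12.1% of the 33, against 6.14%, 2.30%, 5.78% and 5.43% of all autosomal protein-coding genes. No start was inside a region in both replicates of mature adipocytes, and that of Cdh3 alone was in both replicates of pre-adipocytes.

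The promoter sequences of RefSeq (GRCm38.p6, 250 bases before to 50 after a start) held 24 windows for 21 of the 33 single genes. Of these, 14 held at least 10 CG dinucleotides, against 44.0% of the 31396 autosomal promoters, and the median was 13 against 7. Every one of the 24 held at least 1 CG, as did 94.8% of all promoters. The 12 genes without a window include Cdh3, Cdh1, Cdh17 and Cdh13, whose starts lay in a region in at least 1 sample, so the windows leave out most of the occupied starts. Of the 24, the windows of Cdh15 and Cdh26 overlapped a region. By sample these were 4.17%, 0%, 4.17% and 4.17% of the 24, against 10.5%, 4.50%, 10.4% and 9.84% of all promoters. These come first here, followed by the windows of Cdh22, Pcdh17 and Cdh18, genes whose bodies were well covered but whose promoter window was not. Capitals mark CG, which reads the same on both strands, and the sequences run 5′ to 3′ in the direction of transcription.
Cdh15, chr8:122848124-122848423, plus strand: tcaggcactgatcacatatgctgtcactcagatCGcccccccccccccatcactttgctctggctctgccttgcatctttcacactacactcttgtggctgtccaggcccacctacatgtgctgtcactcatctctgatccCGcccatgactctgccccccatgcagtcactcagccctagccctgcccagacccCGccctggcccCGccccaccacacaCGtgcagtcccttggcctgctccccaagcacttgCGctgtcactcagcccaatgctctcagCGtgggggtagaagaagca
Cdh26, chr2:178430265-178430564, plus strand: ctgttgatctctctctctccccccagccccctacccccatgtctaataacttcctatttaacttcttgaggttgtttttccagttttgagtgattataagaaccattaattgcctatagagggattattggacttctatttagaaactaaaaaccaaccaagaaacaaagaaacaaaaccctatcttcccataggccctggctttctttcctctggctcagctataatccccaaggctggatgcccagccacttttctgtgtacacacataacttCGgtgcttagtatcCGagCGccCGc
Cdh22, chr2:165234688-165234987, minus strand: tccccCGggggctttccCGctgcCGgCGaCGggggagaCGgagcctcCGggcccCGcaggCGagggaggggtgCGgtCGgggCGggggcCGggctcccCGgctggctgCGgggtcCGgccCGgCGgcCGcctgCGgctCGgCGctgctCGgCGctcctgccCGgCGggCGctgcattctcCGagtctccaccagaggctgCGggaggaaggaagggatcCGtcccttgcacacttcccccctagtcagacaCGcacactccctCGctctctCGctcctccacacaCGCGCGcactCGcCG
Pcdh17, chr14:84443313-84443612, plus strand: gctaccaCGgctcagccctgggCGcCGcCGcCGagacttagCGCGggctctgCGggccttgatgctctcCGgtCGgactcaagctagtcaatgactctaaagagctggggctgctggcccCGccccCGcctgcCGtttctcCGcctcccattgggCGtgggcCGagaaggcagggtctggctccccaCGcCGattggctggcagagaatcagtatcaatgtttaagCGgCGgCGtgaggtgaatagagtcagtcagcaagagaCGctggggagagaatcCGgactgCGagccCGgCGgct
Cdh18, chr15:23036213-23036512, plus strand: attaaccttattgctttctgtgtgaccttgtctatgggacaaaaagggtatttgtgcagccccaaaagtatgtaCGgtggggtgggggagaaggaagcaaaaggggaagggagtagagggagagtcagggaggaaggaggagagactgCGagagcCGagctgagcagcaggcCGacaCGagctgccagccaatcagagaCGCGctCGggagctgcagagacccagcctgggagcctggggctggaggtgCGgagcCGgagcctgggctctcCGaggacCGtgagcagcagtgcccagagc

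The promoter window of Cdh15 held 7 CG and overlapped a region over 77 bases in pre-adipocyte replicate 1 and over all 300 in mature adipocyte replicate 1. That of Cdh26 held 4 CG and lay wholly inside a region in mature adipocyte replicate 2 alone. The 3 windows shown without a region held 38 CG in Cdh22, 26 in Pcdh17 and 12 in Cdh18, but others without a region held 2 (Cdh10) and 4 (Pcdh20). Around the Cdh22 window the nearest region lay 1.21 kb and 29.9 kb away in pre-adipocytes and 2.41 kb away in both mature samples, and around that of Pcdh17 1.71, 11.6, 3.91 and 3.51 kb away. The RefSeq start of Cdh18 lies 487 kb inside the gene body as GENCODE draws it, and the nearest region was 17.4, 3.01, 0.213 and 4.01 kb from its window. The CG count is a description of 5 windows and was not tested against occupancy.

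Read density inside regions was compared where a region was called in all 4 samples. Of 12857 such merged regions, 40 lay in the window of a single gene, 10 in Pcdh9, 9 in Cdh18, 7 in Pcdh15, 4 in Cdh22 and the rest in Cdh1, Cdh3, Cdh23, Cdh11, Cdh17, Pcdh1 and Pcdh12. None of the 40 passed an adjusted p of 0.05 in edgeR's quasi-likelihood test with Benjamini-Hochberg adjustment over all regions, where 11 passed in all, or 0.0856%. At an unadjusted p under 0.05 there were 7 of 40 in edgeR, beside 1176 of all 12857 regions, and 2 in DESeq2, beside 217, which called none of the 40 either. Their median log2 fold change, mature over pre-adipocytes, was -0.05 against -0.00066 over all regions tested. Cdh13 had no region called in all 4 samples, so its difference in coverage could not enter this test. For the 40 regions, reads were counted in the called stretches and offset by called length, so a change in extent alone is taken out. The Cdh18 region at chr15:22964001-22995200 held 1212, 431, 75 and 877 ChIP reads over 30400, 20400, 2000 and 21400 called bases. Its log2 fold change was -0.10.

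The smallest p-values fell in Cdh18 and Pcdh9. The Cdh18 region at chr15:23001001-23018800 held 459 and 131 ChIP reads in pre-adipocytes, over 13400 and 5800 called bases, and 111 and 249 in mature adipocytes, over 3800 and 8400. Per called base it was lower in mature adipocytes by a log2 fold change of -0.45 ± 0.13 (SE; edgeR adjusted p = 0.191). The Cdh18 region at chr15:23430001-23462200, near the 3′ end, held 1528, 580, 1097 and 1076 ChIP reads over 32200, 22800, 24400 and 23800 called bases, with a log2 fold change of -0.20 ± 0.07 (SE; edgeR adjusted p = 0.294). Without pre-adipocyte replicate 2, which leaves 1 pre-adipocyte sample, this region had a log2 fold change of -0.23 ± 0.06 (SE). The Pcdh9 region at chr14:93274001-93280600 held 99, 46, 140 and 210 ChIP reads over 2200, 1800, 3800 and 5800 called bases, with -0.46 ± 0.18 (SE; edgeR adjusted p = 0.397). It had more reads in mature adipocytes but over a longer stretch. In Cdh18, 8 of 9 regions had a log2 fold change below 0 and a median of -0.10, and in Pcdh15 1 of 7, with a median of 0.05. Regions of the same gene were read in the same 4 libraries, so these are not independent counts of direction.

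**Figure D5:**
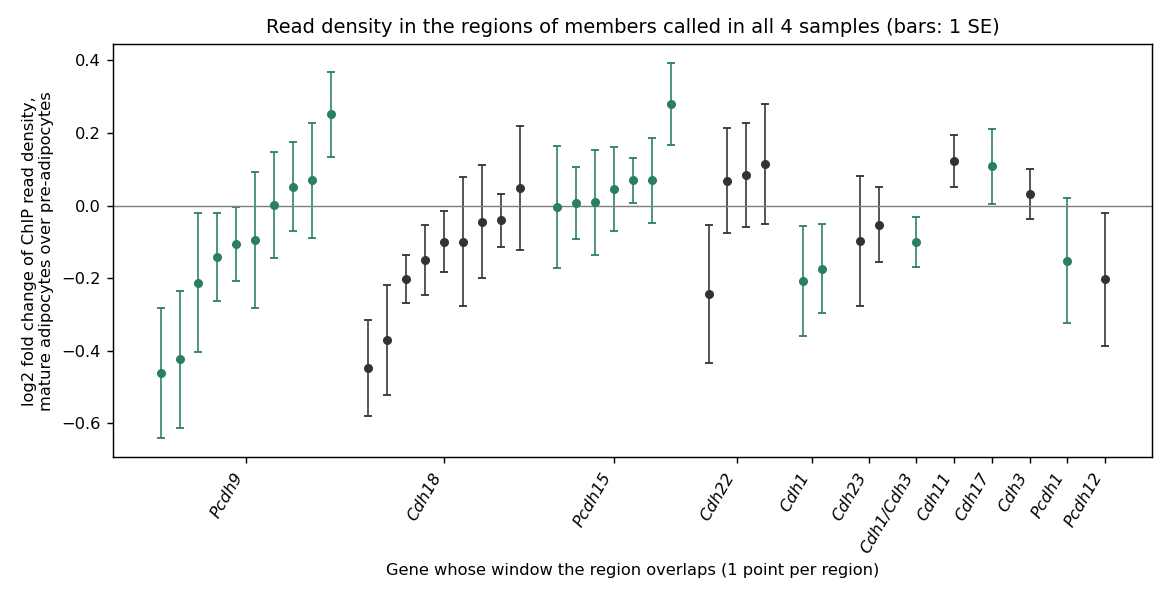
Log2 fold change of ChIP read density, mature adipocytes over pre-adipocytes, for the 40 regions called in all 4 samples, grouped by gene on the horizontal axis; each point is 1 region and each bar 1 SE of the edgeR fit. Of the Cdh18 points, all from the same 4 libraries, 8 of 9 lie below 0, and no point passed an adjusted p of 0.05.

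The genes of partner proteins were occupied in part, beside 53.7% of all genes with a region in any sample and 4396 of 20807 with regions in all 4. Of 10 genes for catenins and junction partners, which link cadherins to the cytoskeleton, 8 had a region in any sample and Vcl (vinculin) and Ctnnd2 (delta-2 catenin) in all 4, while Ctnna2 and Plekha7 had none. Together they were covered to 5.59%, 2.08%, 3.44% and 3.34%. Of 26 other genes of the cadherin superfamily, 12 had a region and 6 in all 4 samples, Dchs2, Fat2, Cdhr1, Cdhr2, Cdhr3 and Celsr1, whereas the desmosomal Dsc and Dsg genes had none. Of 10 genes for factors known to act on clustered protocadherin promoters, 6 had a region but Smc3, a cohesin subunit, alone in all 4 samples, and Ctcf, Rad21, Wapl and Nipbl had none. Of 8 genes for protocadherin signalling partners, 7 had a region, Fyn and Cyfip2 in all 4 samples, and their covered share was 2.50% and 0.714% in pre-adipocytes and 3.57% and 3.94% in mature adipocytes. Their regions called in all 4 samples numbered 12, 10, 1 and 0 for the 4 lists, and none passed an adjusted p of 0.05 in edgeR.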

How the data were processed

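ChIP-seq of macroH2A1.2-GFP was analysed in 4 samples. Single reads were aligned by the authors with Bowtie 1.1.2 to mm10, allowing up to 2 mismatches and keeping uniquely mapping reads, removed duplicates with Picard, and called regions in each sample with SICER 1.1 against a library made without antibody, per the labels and the study's methods. The deposited tables hold, per region, the count of ChIP reads and the count of control reads, both unscaled. The p-value and the FDR of each region were deposited by the authors, and the largest FDR in the tables is 0.001, stricter than the rate the study's methods name. The deposited fold is a ratio, ChIP over control counts after scaling by library size.

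From these, regions overlapping a gene window (GENCODE M21, body with 10 kb on either side) by at least 1 bp were taken and the covered share computed, using Python 3.11.15 with numpy 2.4.6 and pandas 2.3.3. Positions are printed 1-based. The library size relative to the control was read from the scaling of the fold. Exact permutation tests were run on values per sample. Regions were merged across samples, and ChIP counts of those called in all 4 were tested with edgeR 4.0.16 (R 4.3.3; quasi-likelihood, TMM, offset of log called length), with DESeq2 1.42.0 as an alternative. On simulated counts for 12857 regions this test recovered 73% of changes of 0.5 and 100% of changes of 1 on the log2 scale. It made 14 false calls. The simulation drew all regions with a single dispersion and kept the observed called lengths. Its rates hold for that setting and may be too high for the real regions. GRCm38.p6 promoters share the coordinates of mm10.

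The genes named with values in each sample are the clusters, the 8 longest single genes, Cdh1, Cdh2, Cdh4, Cdh5, Cdh11 and Cdh13, the most and least covered genes of each class, and the 3 regions with the smallest p, together with others named after their values were seen. The members and lists were chosen with earlier results of these data known. The control has no table of its own here. Depth enters as counts per region, and counting error is not the only error behind a called region.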

Additional observations from a re-analysis of the deposited data

How the results depend on the processing

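Windows of the body alone or with 25 kb, an FDR of up to 1e-05, and a minimum body of 200 kb kept the direction of each difference. A fold of at least 2 left 7 and 10 genes with regions in both replicates of pre-adipocytes and mature adipocytes (15 and 19 before). No share over all genes was taken at that fold. It also turned the log2 enrichment of the long single genes, mature minus pre-adipocytes, to -0.0419. Taken as a median over genes, with regions of any fold, the enrichment difference was -0.0829. Leaving out 1 sample at a time gave -0.0664 (without pre-adipocyte replicate 1) to 0.256 for this enrichment. The covered share then differed by -1.49 (without pre-adipocyte replicate 2) to 1.96 percentage points, and by -0.207 without mature adipocyte replicate 2. Alternatives added after seeing the data left out single genes. Without Cdh18 the enrichment difference was -0.0314, and the covered share differed by 2.61 points (exact permutation test, p = 0.33). Without Cdh13 it was -0.496 points and without Pcdh15 -0.586 points. The clusters held no region under any of these, which fixes the sign of their difference from the long single genes. Member regions past an adjusted p of 0.05 numbered 0 under every alternative and 0 to 1 when a sample was left out. The 1 was Cdh18 at chr15:23430001-23462200, lower in mature adipocytes by a log2 fold change of -0.23 ± 0.06 (SE) without pre-adipocyte replicate 2. That fit leaves 1 pre-adipocyte sample, and calls over all regions were also most numerous there. Over all regions 11 passed, against 2 in DESeq2, 0 with library sizes relative to the control, 3 without the length offset, 27 with at least 50 reads in every sample, 0 with regions called in at least 3 samples, and 1 to 224 with a sample left out. The cause was not tested. Replicate numbers were shared between conditions, and the correlation of deviations of same-numbered samples was 0.00775. With 2 samples per condition the value for different numbers, -0.00775, is its mirror image. Whether same-numbered samples share a batch cannot be told from it. A replicate block gave 0 member regions and 27 in all, and left the covered share difference at 0.236 points. Depth limits the comparison, since pre-adipocyte replicate 2 was the shallowest library, and called regions alone were available.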
